A study of Mus musculus with 6 samples.

Results

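The mouse genes Orm1, Orm2, Orm3, Vnn1, Vnn3, Gm15056, Saa3, Lcn2, Defb1 and Defb3 were followed in cultured keratinocytes that had lost Sox4, Sox11 or both. These 10 genes, of 21368 named genes with a probe on the array, were taken by name as acute-phase, vanin and defensin genes. Within the set, Orm1, Orm2, Vnn1 and Gm15056 were selected on their log2 ratio in the combined knockout, where they rose most, so the values of the 10 genes there describe the choice and carry no test. Each of the 10 genes had exactly 1 probe.

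The cells were primary keratinocytes, the cells that make up the epidermis, grown from the back skin of newborn pups of the strain labelled 129SvEx:C57BL/6. Sox4 cKO cells had lost Sox4, Sox11 cKO cells had lost Sox11 and Sox4/11 dcKO cells had lost both, and wild-type keratinocytes were the control on every array. Floxed alleles were removed by a Cre recombinase under the keratin 14 promoter (Krt14-Cre, FVB/N), which acts in basal epidermal cells; the floxed founders also carried Sox12-/-, and the labels do not give the Sox12 genotype of the cultures. All cultures, wild type included, were first grown on J2 fibroblast feeders and then without them. RNA of one knockout and one wild-type culture was hybridised together on each of 6 arrays, 2 for each of the 3 genotypes, with the dyes exchanged between the 2 arrays. The labels call the 2 arrays biological replicates but do not say whether a wild-type culture was used on more than one array.

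Orosomucoids (Orm1, Orm2 and Orm3, also called alpha-1-acid glycoproteins) are small secreted lipocalins of the acute-phase response, in which inflammatory cytokines such as interleukin 6 and interleukin 1 act through STAT3, C/EBP and NF-kB factors and glucocorticoids act through their own receptor. Saa3 (serum amyloid A3) and Lcn2 (lipocalin 2, which binds bacterial siderophores) belong to the same response and are also made in epithelia. Vanins are pantetheinases, enzymes that split pantetheine, a breakdown product of coenzyme A, into pantothenate (vitamin B5) and cysteamine. Defb1 and Defb3 encode beta-defensins, small cationic antimicrobial peptides of epithelia, and Gm15056 carries the older name Defb52.

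The targeted genes agreed in direction with the labels on every array. The log2 change of Sox4 was -2.52 in Sox4 cKO (SD 0.04, n = 2, limma adjusted p = 0.00395) and -2.52 in dcKO (SD 0.41, adjusted p = 0.00105). That of Sox11 was -2.98 in Sox11 cKO (SD 0.47, n = 2, limma adjusted p = 0.0412) and -3.43 in dcKO (SD 0.51, adjusted p = 0.0066). Between 35.1% and 45% of probes were well above background in a channel, and no spot was saturated. All 10 of the keratinocyte markers were above background in all 12 channels (6 knockout and 6 wild type).

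The 2 orosomucoid promoters held in the reference table are shown because these neighbouring genes differed on the arrays: Orm2 was among the highest ratios in dcKO and Orm3 stayed near background. The runs below are the 250 bases before the start of each gene (RefSeq, GRCm38.p6), Orm2 at chr4:63362199-63362448 and Orm3 at chr4:63355908-63356157, both on the plus strand. Capitals mark a SOX motif (ACAAAG) and C/EBP motifs (TTNNGNAA), searched on both strands.
Orm2: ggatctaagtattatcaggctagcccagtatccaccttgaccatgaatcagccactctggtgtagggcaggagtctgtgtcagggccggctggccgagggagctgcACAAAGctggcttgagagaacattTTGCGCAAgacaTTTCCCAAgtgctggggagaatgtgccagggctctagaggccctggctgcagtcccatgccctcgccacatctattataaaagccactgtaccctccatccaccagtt
Orm3: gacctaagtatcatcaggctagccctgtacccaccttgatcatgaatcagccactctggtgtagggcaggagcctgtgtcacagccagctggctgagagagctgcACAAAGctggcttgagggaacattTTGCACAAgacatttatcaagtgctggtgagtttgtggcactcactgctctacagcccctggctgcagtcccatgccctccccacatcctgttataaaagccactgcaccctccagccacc
The runs were identical in 218 of 255 aligned columns (85.5%). Orm2 held the SOX letters 144 to 139 bases before its start and C/EBP matches at 120 to 113 and 108 to 101 bases. Orm3 held the SOX letters at 145 to 140 bases and a C/EBP match at 121 to 114 bases. A second C/EBP match was thus present in Orm2 and not in Orm3. Of 32851 mouse promoters cut to the same length, 36.8% held a C/EBP match and 16.5% held ACAAAG. Of the 7 of 10 genes with a promoter in the table, Vnn3, Saa3, Lcn2 and Defb3 held 2, 4, 1 and 2 C/EBP matches, and the Gm15056 window held no match to any of the 5 motifs searched. The others were ACAATG (10.7% of promoters), a STAT motif (TTCNNNGAA, 7.02%) and an NF-kB motif (3.9%), none of which occurred in the 7 windows. A match is a string of letters and does not show binding.

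In dcKO, 5 of the 10 genes had a log2 ratio above 1.5 on both arrays: Gm15056, Vnn1, Orm2, Orm1 and Defb1. Of all probes, 0.25% did so, but the rule used this contrast and nothing is read from the comparison. By mean ratio Gm15056 stood 1st, Vnn1 3rd, Orm2 4th, Orm1 5th and Defb1 21st of the 21368 genes. Orm3 stood at place 684 and the remaining genes lower. These values are descriptions of 2 arrays.

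**Figure D1:**
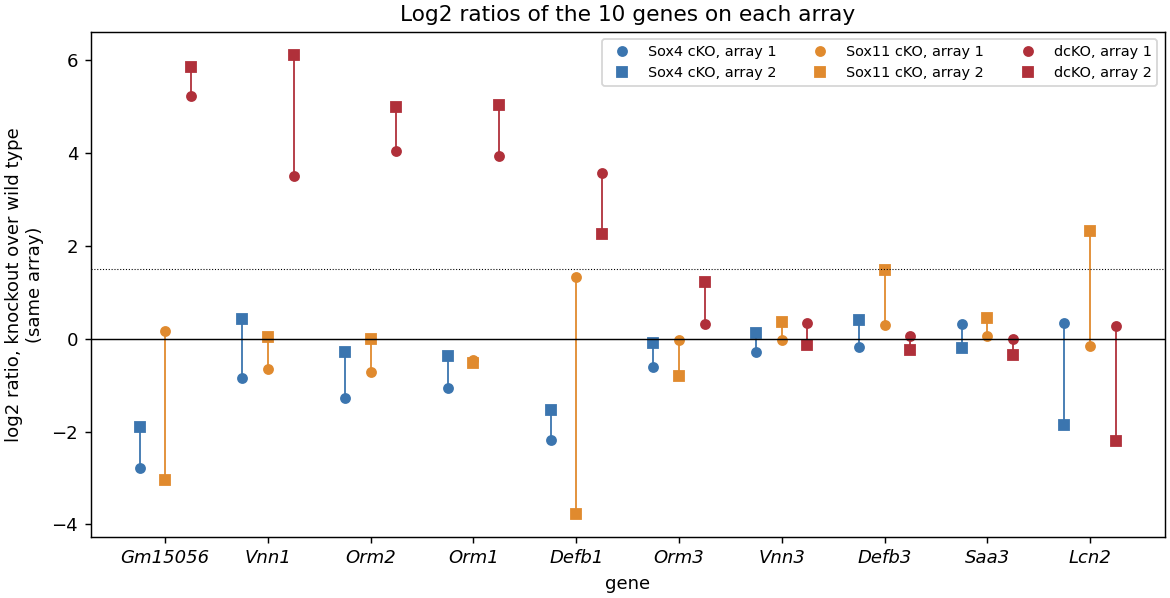
Log2 ratio of knockout over wild type on each array (vertical axis) for the 10 genes (horizontal axis); circles are array 1 and squares array 2 of each genotype, a line joins the 2 arrays, and the dotted line marks 1.5. Gm15056, Vnn1, Orm2, Orm1 and Defb1 lie above 1.5 on both dcKO arrays, and no gene does so on both arrays of Sox4 cKO or Sox11 cKO.

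Orm1 and Orm2 gave almost the same values. The log2 ratio of Orm1 was 3.93 and 5.03 on the dcKO arrays, -1.06 and -0.38 on the Sox4 cKO arrays and -0.45 and -0.51 on the Sox11 cKO arrays. That of Orm2 was 4.04 and 4.99, -1.28 and -0.28, and -0.71 and -0.01 in the same order. The distance between the pair over the 6 ratios was the smallest of any pair among the 10 genes. Orm1 and Orm2 are near-identical copies, and whether each probe reads the other transcript was not tested. The mean dcKO ratio was 4.48 ± 0.78 for Orm1 and 4.52 ± 0.67 for Orm2 (log2, SD, n = 2), 22.3-fold and 22.9-fold.

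Levels, given as log2 intensity in each channel after scaling between arrays, showed that part of this gap lay in the wild-type channel. Orm1 reached 10.08 and 10.97 in the dcKO channels and stood at 6.15 and 5.94 in the wild-type channels beside them. In the wild-type channels of the other 4 arrays it ran from 7.17 to 9.30, and in the 4 channels of Sox4 cKO and Sox11 cKO from 6.72 to 8.79. Both dcKO levels were above all 10 other channels, and both wild-type levels on the dcKO arrays were below all 4 other wild-type levels. Orm2 showed the same order, with 10.48 and 11.28 in dcKO, 6.44 and 6.30 in the wild type beside it and 7.54 to 9.26 in the other wild-type channels. Set against the wild-type mean of the other 4 arrays, the dcKO level was higher by 2.41 for Orm1 and 2.51 for Orm2 (log2). The low wild-type level beside dcKO was present in both dyes (6.15 in Cy3 and 5.94 in Cy5 for Orm1). A difference between the cultures and one between the arrays cannot be told apart here.

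Orm3, which lies between Orm1 and Orm2, was above background in 2 of 12 channels, the second dcKO array and the wild-type channel of the second Sox11 cKO array. Its dcKO ratios were 0.32 and 1.23, and its level of 5.49 to 6.07 in dcKO overlapped the wild-type range of 4.84 to 6.16.

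**Figure D2:**
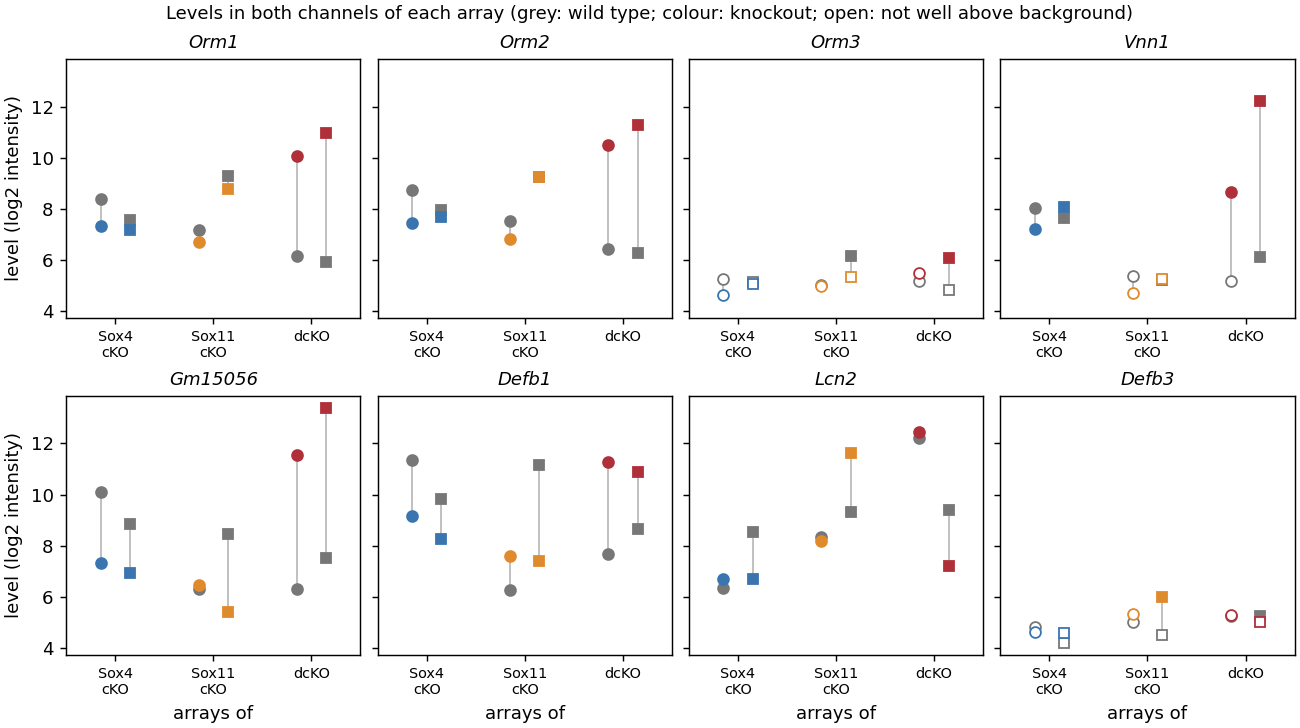
Level in log2 intensity (vertical axis) of 8 of the genes in both channels of each array, by the genotype the array tested (horizontal axis); grey is wild type, colour is the knockout on the same array, circles and squares are arrays 1 and 2, and open symbols were not well above background. The dcKO levels of Orm1, Orm2, Vnn1 and Gm15056 lie above all their other channels, whereas the wild-type levels of Lcn2 run from 6.35 to 12.20.

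Vnn1, the pantetheinase bound to the cell surface, had dcKO ratios of 3.50 and 6.11, the widest gap between the dcKO arrays among the 5 genes above 1.5. The difference lay mostly in the dcKO channel itself, at 8.68 and 12.21, since the wild-type channels beside it read 5.18 and 6.10. The first of these was not well above background, so the ratio of 3.50, the gap and the place among all genes rest in part on a background value. On the Sox4 cKO arrays Vnn1 was above background in both genotypes, at 7.22 and 8.08 in the knockout and 8.06 and 7.66 in the wild type. On the Sox11 cKO arrays it was not well above background in any of the 4 channels (4.73 to 5.38). Wild-type cultures thus ranged from background to 8.06, and the dcKO level was 3.86 above the mean of the 4 other wild-type channels. Vnn3, its neighbour, was not well above background in any of the 12 channels (4.51 to 5.15).

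Gm15056 had the highest ratio of all named genes, 5.23 and 5.85 on the dcKO arrays (5.54 ± 0.44, SD, n = 2, 46.4-fold). Its level was 11.56 and 13.39 in dcKO, above all other channels. Its wild-type level varied widely, from 6.31 and 6.34 on the first Sox11 cKO and dcKO arrays to 10.10 on the first Sox4 cKO array. Defb1, the constitutive beta-defensin of epithelia, had dcKO ratios of 3.58 and 2.26 (2.92 ± 0.93), but its dcKO level of 11.26 and 10.90 did not exceed the wild type of all arrays, which ran from 6.30 to 11.37. Against the wild type of the other 4 arrays the dcKO level of Gm15056 was higher by 4.05 and that of Defb1 by 1.42. Both dcKO channels above all 10 others was found for Orm1, Orm2, Vnn1 and Gm15056 and for 2.91% of probes, again within the contrast the rule used. Defb3 was above background in 2 of 12 channels and its dcKO ratios were 0.05 and -0.24.

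Of the inflammatory pair, Saa3 passed background in 1 of 12 channels, the wild type of the first dcKO array, and its dcKO ratios were 0.00 and -0.36. Lcn2 was bright in all 12 channels. Its ratios were 0.27 and -2.20 in dcKO, 0.35 and -1.86 in Sox4 cKO and -0.16 and 2.33 in Sox11 cKO, so the 2 arrays of each genotype pointed in opposite directions. Its level ran from 6.35 to 12.20 among the 6 wild-type channels alone, a range of 5.85 on the log2 scale and the widest of the 10 genes. The mean ratio of Lcn2 differed less between genotypes than the ratio did between arrays of one genotype.

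The single knockouts were not used to choose the genes, and here the fit over all probes was a test. None of the 10 genes was called in Sox4 cKO, in Sox11 cKO or in the difference between them (limma, adjusted p below 0.05 and log2 change above 1.5 in either direction). Of all probes, 0.142%, 0.0862% and 0.0108% were called in these comparisons. Without adjustment, 4 of 10 genes had p below 0.05 (limma) in Sox4 cKO, 3 in Sox11 cKO and 0 in the difference, beside 7.4%, 6.84% and 6.35% of probes. Over named genes, by their brightest probe, the share was higher, 10.5% in Sox4 cKO and 10.7% in Sox11 cKO.

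In Sox4 cKO all 4 of these genes had lower fitted values and lower ratios on both arrays. Orm2 was at -0.78 (95% confidence interval -1.12 to -0.43, adjusted p = 0.18, limma), and Orm1 at -0.72 (-1.21 to -0.23, adjusted p = 0.48). Gm15056 was at -2.34 (-3.78 to -0.90, adjusted p = 0.416), with ratios of -2.78 and -1.90 and levels of 7.32 and 6.94 against 10.10 and 8.84 in the wild type. Defb1 was at -1.86 (-3.67 to -0.05, adjusted p = 0.663), with ratios of -2.19 and -1.53. The call for the last pair depended on the Sox11 cKO arrays. With either of them left out, which left the change itself as it was and narrowed the shared estimate of spread, Gm15056 (adjusted p = 9.79e-05) and Defb1 (adjusted p = 0.00818) were called lower in Sox4 cKO, as they were with the Sox4 cKO arrays fitted alone (adjusted p = 0.000178 and 0.00069). Without the first Sox4 cKO array the fitted value of Defb1 was 0.071, although the ratio on the remaining array was -1.53. That fit left 1 Sox4 cKO array and took the dye term from the arrays of the other genotypes.

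The 2 Sox11 cKO arrays disagreed for the defensins. Gm15056 had ratios of 0.17 and -3.05 and Defb1 of 1.32 and -3.77, and the wild-type level was higher on the second array for both genes (6.31 and 8.46 for Gm15056, 6.30 and 11.17 for Defb1). Their fitted Sox11 cKO values were -1.44 (-2.88 to 0.00) and -1.23 (-3.04 to 0.58). Without the first Sox11 cKO array the fitted values of Gm15056, Defb1 and Lcn2 were -3.43, -3.61 and 3.50, and without the second all 3 changed sign (0.55, 1.15 and -1.33). Each of these fits left 1 Sox11 cKO array and shifted its ratio by a dye term taken from the other genotypes. Defb3 was at 0.89 in Sox11 cKO (0.32 to 1.45, adjusted p = 0.391), with 1 of 2 knockout channels above background, and Orm2 at -0.36 (-0.71 to -0.02, adjusted p = 0.688). The difference between Sox4 cKO and Sox11 cKO was widest for Lcn2, -1.84 (-4.29 to 0.61, adjusted p = 0.868), and for the orosomucoids ran from -0.41 to 0.07. These intervals do not show that the knockouts act alike.

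Of 164 genes in 6 lists of related pathways and families, 4 were called (2.44%), beside 1.39% of all named genes, and 29 had an unadjusted p below 0.05 (17.7%, beside 19.8%). Of 30 further acute-phase genes on the array, 18 were above background in any channel, 1 was called higher and 1 lower in dcKO, and the median log2 change was 0.02, beside -0.01 over all named genes. Of all genes, 0.562% were called higher in dcKO and 0.833% lower, beside 0.0655% and 0.0983% in Sox4 cKO and 0.0374% and 0.14% in Sox11 cKO. Serpina3m, a serine protease inhibitor of the antichymotrypsin cluster, rose on both arrays (1.55 and 1.71, adjusted p = 0.0069, limma) from a wild type not well above background. Over the lowest signal well above background the rise was 2.83-fold, which is not a minimum. With offset 50 its log2 change was 0.97. Fn1, which encodes fibronectin, fell by 3.97 (ratios of -3.54 and -4.40, adjusted p = 0.00285), and the first of these ratios was taken against a dcKO channel that was not well above background (5.54). Fn1 is a matrix gene as well as an acute-phase plasma protein. Among the brightest genes that were not called, C3 (complement component 3) was at -0.88 ± 1.73 and Apoe at 0.13 ± 0.24 (SD, n = 2).

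Of 26 other antimicrobial proteins, 15 were above background in any channel and 1 was called higher in dcKO. That gene was Spink5, which encodes the LEKTI inhibitor of epidermal kallikreins and not a peptide that kills bacteria. It had ratios of 4.70 and 2.78 in dcKO (3.74 ± 1.36, SD, n = 2, adjusted p = 0.0168), and its level was 13.13 and 12.69 against 8.42 and 9.91. Its wild-type level on the Sox4 cKO and Sox11 cKO arrays ran from 10.16 to 12.95, above both wild-type levels beside dcKO, the order also seen for Orm1 and Orm2. The antimicrobial Slpi (secretory leukocyte peptidase inhibitor), Lgals3 (galectin 3) and S100a9 (a calgranulin) were at -0.26, 0.41 and -1.01 and were not called. Of 41 other genes named Defb, 35 were never above background and 0 were called in any genotype. Gm6040, whose older name is Defb51, is not among the 41 and was called higher in dcKO, as given below with the neighbours. In dcKO 1 of the 41 had an unadjusted p below 0.05 (limma), in Sox11 cKO 3 and in Sox4 cKO 0. The shares of all named genes were 19.8%, 10.7% and 10.5% in that order. The bright one, Defb14, was at 0.69 ± 0.28 (adjusted p = 0.317).

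Of 39 cytokines, receptors and transcription factors that act on acute-phase genes, none was called in any genotype. In Sox4 cKO 5 of the 39 had an unadjusted p below 0.05 (limma) and in Sox11 cKO 11, beside 10.5% and 10.7% of all named genes. In dcKO 15 did so, beside 19.8%, and the median change of the 39 was -0.13. The brightest were Rela (an NF-kB subunit) at -0.72 ± 0.75, Il17rc (an interleukin 17 receptor subunit) at 1.30 ± 0.55, past the adjusted p (0.0122) but not the fold, and Nfkbia (the NF-kB inhibitor) at -1.73 ± 1.55 (adjusted p = 0.108). Of 16 genes of pantothenate, coenzyme A and cysteamine metabolism, the pathway of the vanins, none was called either, and the median was 0.06, with Coasy (coenzyme A synthase) at 0.59, Aasdhppt (which transfers phosphopantetheine) at 0.17 and Pank4 at -0.12. The mitochondrial coenzyme A carrier Slc25a42 passed the adjusted p (0.0298) at 0.99; it is outside the rule for named genes and was picked for that value. Of 12 lipocalins, related lipid-binding proteins and lipocalin receptors, the fatty-acid binding protein gene Fabp4 was called lower in dcKO (ratios of -3.23 and -2.39, limma adjusted p = 0.0413). Its level was 8.04 and 6.30 in dcKO against 11.26 and 8.69 in the wild type beside it. In the wild type of the other arrays Fabp4 ran from 6.93 to 9.73, a range that held the first dcKO level. Fabp5 was at -0.72, Crabp2 at -0.79 and Lmbr1l at -0.52. Neither single knockout had a called gene in these lists. The genes with an unadjusted p below 0.05 numbered 15 of 164 in Sox4 cKO (9.15%, beside 10.5% of all named genes) and 26 in Sox11 cKO (15.9%, beside 10.7%). All 4 calls in dcKO were lost when either dcKO array was left out. They were also lost with offset 50 (limma, adjusted p from 0.0586 to 0.186) and with the scanner's processed signals (0.187 to 0.408). The call of Sox11 in dcKO was lost under all of these settings too (0.0919 with offset 50 and 0.222 with processed signals). Among these settings, that of Sox4 was lost only with processed signals (0.185). The direction held in each case, with log2 changes under these settings of -5.52 to -3.41 for Fn1, 0.97 to 4.02 for Serpina3m, 2.44 to 5.05 for Spink5 and -3.85 to -1.77 for Fabp4.

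**Figure D3:**
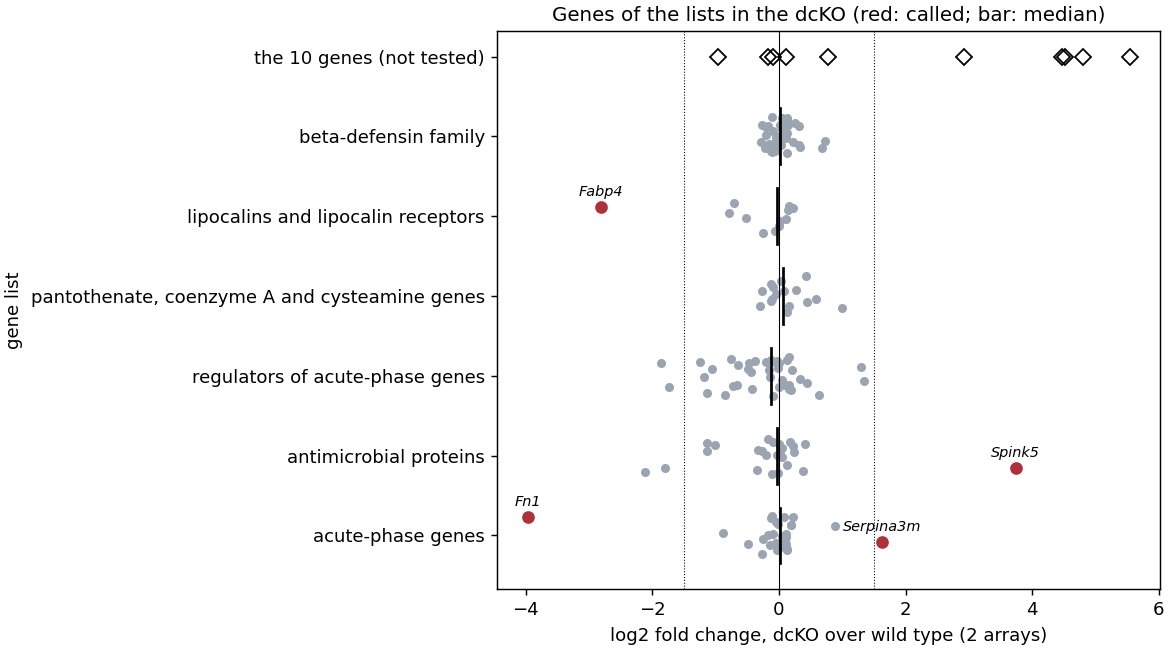
Log2 fold change of dcKO over wild type (horizontal axis, mean of 2 arrays) for the genes of each list (rows); grey dots were not called, red dots were called and named, black bars are list medians, dotted lines mark 1.5 in either direction and diamonds are the 10 genes, which carry no test. The list medians lie between -0.13 and 0.06 and 5 of the 10 genes lie beyond the right dotted line.

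The change in dcKO differed from that in the single knockouts for some of these genes by a direct test. The log2 ratio of Spink5 to wild type was higher for dcKO than for Sox4 cKO by 4.79 (limma, adjusted p = 0.0423). Against Sox11 cKO the gap between the ratios was 4.91 (adjusted p = 0.0462). For Serpina3m the ratio exceeded that of Sox4 cKO by 1.62 (adjusted p = 0.041). The same test missed the threshold for Fn1 and Fabp4 against either knockout and for Serpina3m against Sox11 cKO (adjusted p = 0.0584 to 0.525). The test compares ratios and not levels. The mean Spink5 level was 12.91 in dcKO cells, 11.22 where Sox4 alone was lost and 10.33 where only Sox11 was. The wild type beside them averaged 9.17, 12.27 and 11.49 in that order. The second dcKO level (12.69) lay below the highest wild-type level of the other arrays (12.95).

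The genes next to the 10 were examined in the same fit. Of 42 neighbours, up to 3 on each side of every locus, 0 were called in Sox4 cKO or Sox11 cKO and 1 in dcKO. Of all named genes, 0.164%, 0.178% and 1.39% were called in Sox4 cKO, Sox11 cKO and dcKO. The called neighbour was Gm6040, older name Defb51, whose annotated span overlaps that of Gm15056 by 497 bases. Gm6040 had dcKO ratios of 1.75 and 2.11 (limma, adjusted p = 0.00267), with levels of 6.84 and 7.50 in dcKO against 5.10, not well above background, and 5.38. Its wild-type level was 6.76 and 6.85 on the Sox4 cKO arrays and 4.94 and 5.19, not well above background, on the Sox11 cKO arrays. The first dcKO level thus lay inside the wild-type range. Its call was lost with offset 50 (1.30, short of the fold), with processed signals (adjusted p = 0.266) and without either dcKO array (adjusted p = 0.0744 and 0.08). In Sox4 cKO it was at -1.19 (ratios of -1.46 and -0.91, adjusted p = 0.0528) and in Sox11 cKO at -0.10. Whether the 2 probes read a shared transcript was not tested. At the orosomucoid and vanin loci the other neighbours stayed between -1.30 (Slc18b1, a transporter gene beside the vanins, adjusted p = 0.0107 and short of the fold) and 0.72 (Col27a1, adjusted p = 0.162).

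**Figure D4:**
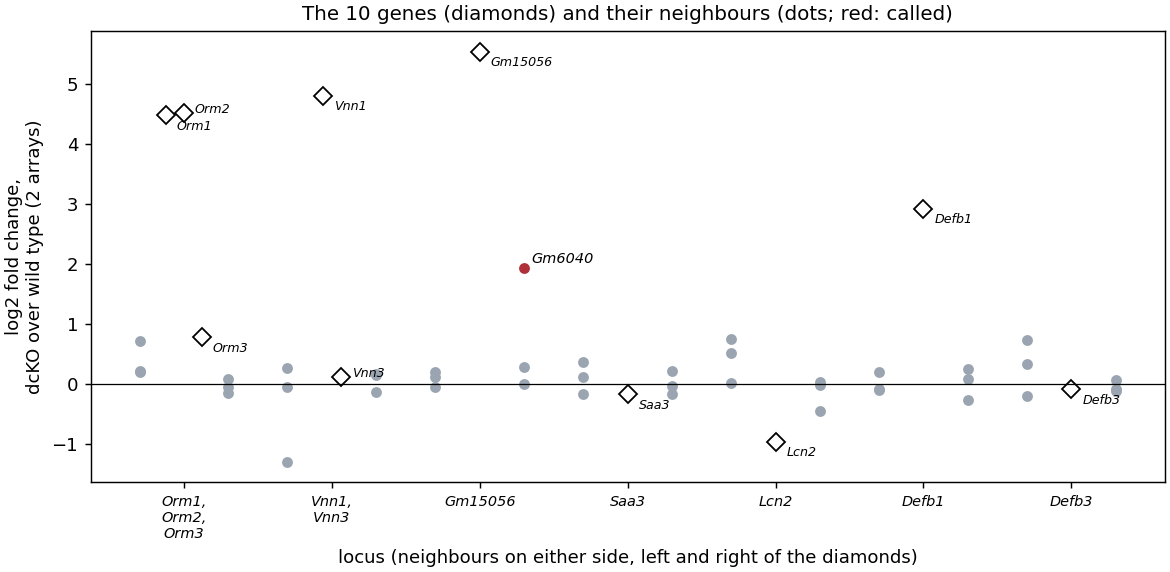
Log2 fold change of dcKO over wild type (vertical axis, mean of 2 arrays) for the 10 genes (diamonds) and up to 3 genes on each side of each locus (dots to the left and right; horizontal axis: locus). Gm6040 beside Gm15056, at 1.93, is the only red dot, the colour for a called gene, and the other neighbours lie between -1.30 and 0.75.

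The genes whose 6 ratios lay nearest to the mean profile of Orm1, Orm2, Vnn1 and Gm15056, among 13135 genes above background, were Hspb8 (a small heat shock protein, distance 1.26), Pycard (the inflammasome adaptor ASC, 1.68), Tmem45a (1.68), Ly6d (2.45) and Psapl1 (2.52). Hspb8 had ratios of 4.14 and 4.55 in dcKO, -1.53 and -0.51 in Sox4 cKO and -1.12 and -1.34 in Sox11 cKO. Its level was 9.62 and 10.76 in dcKO against 5.48 and 6.21 in the wild type beside it. In the wild type of the other arrays it ran from 9.64 to 11.32, so its dcKO level was not above wild type there. The dcKO levels of Tmem45a and Psapl1 also overlapped the wild type of the other arrays, whereas those of Pycard and Ly6d lay above every wild-type level. Pycard had ratios of 4.94 and 4.91 in dcKO and lay between -0.76 and 0.20 on the other arrays. This order was drawn with the dcKO ratios included and is a description.

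Markers of other cells were measured beside these values. Of 9 hepatocyte markers, Alb, Ttr, Apoa1, Apoc3 and Ahsg were at background in every channel, and the summed level of the list was 9.20 to 9.47 in dcKO and 8.94 to 10.98 in wild type. Of 10 fibroblast markers 7 were at background in every channel, among them Col1a1 and Col3a1, and the sum was 8.28 to 8.47 in dcKO and 8.20 to 8.34 in wild type. Of 8 neutrophil markers 4 (Ngp, Mpo, Retnlg and Mmp8) and of 10 macrophage markers 4 (Adgre1, C1qa, C1qc and Tyrobp) were at background. The sums were 12.80 to 12.93 and 11.00 to 11.06 in dcKO, inside the wild-type ranges of 12.42 to 12.95 and 10.91 to 12.03. Above background in all 12 channels were 1 hepatocyte, 2 neutrophil and 3 macrophage markers. The brightest neutrophil marker, Csf3r (mean level 12.74), lay close to the whole neutrophil sum, so that sum says little about the dimmer markers. Among these, Cxcr2 was at 0.87 ± 0.29 in dcKO and was not called (adjusted p = 0.0509, limma). The brightest macrophage marker was Itgam (mean level 10.54). Of 6 sebocyte markers 3 were at background, with a sum of 7.71 to 7.74 in dcKO and 7.56 to 8.20 in wild type. Of 9 markers of differentiating keratinocytes, none was called. The dcKO changes of all 9 ran from -1.25 to 1.59. In dcKO 5 of the 9 had an unadjusted p below 0.05 (limma), beside 19.8% of all named genes. In Sox4 cKO 3 of the 9 did so and in Sox11 cKO 1. The median of the 9 was 0.78 for dcKO, with -0.41 for Sox4 cKO and -0.37 for Sox11 cKO. Their summed level was 13.37 to 14.59 in dcKO and 12.80 to 15.26 in wild type. The part of differentiation in the values of the 10 genes was not tested, and more cells expressing a gene cannot be told apart from more RNA per cell.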

How the data were processed

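Agilent 2-colour arrays of 6 samples were analysed, 2 for each knockout, each against wild type. The authors deposited spot intensity values, background values and a log10 ratio per spot from Agilent Feature Extraction 11.0.1.1 (per the labels), and a table of log2 ratios of knockout over wild type from limma; per the study's methods these had normexp and loess applied and the dye effect removed with ComBat. The deposited log10 ratios and log2 table were used as alternatives only.

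Median spot signals were corrected with normexp (offset 16) and normalised with loess within each array in limma 3.58.1 (R 4.3.3). Of 62976 spots, 3671 control spots and 194 to 288 outlier spots per array were left out, and spots of a probe averaged (55681 probes). One model over 6 arrays held the 3 genotypes and a dye term (residual degrees of freedom 2, prior 5.37). The replicate number and the dye orientation coincide, so this term is also the replicate block. The deviations of same-numbered arrays correlated at 0.316, 0.244 and 0.125, and the numbers were taken to pair the arrays. A dye effect alone can give such correlations, so they do not show that the cultures were paired. A probe was called at an adjusted p (Benjamini-Hochberg, all probes) below 0.05 and an absolute log2 change above 1.5, the thresholds of the study. Levels were scaled between arrays (Aquantile) and may carry dye bias. The number of arrays limits the precision. Whether replicates came from separate animals is not given in the sources used here, so p-values measure the spread between these arrays.

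Of 29786 probes with a RefSeq accession, 28331 were named (RefSeq, GRCm38.p6), and a gene was represented by its brightest probe. The fold of Serpina3m over background sets the knockout mean against the lowest signal well above background in each wild-type channel, or the wild-type signal where that was higher. Brighter probes can still be marked as not well above background, so this fold is not a minimum. The genes, lists and tests were chosen with earlier results of these data known. Genes named were the 10, every called gene of a list and its 3 brightest others (1 is not reported here), neighbours, the 5 nearest profiles, Sox4 and Sox11. Promoters were aligned with Biopython 1.88. The fit was tested on simulated data. Alternatives changed the dye term, offset, signal, normalisation, probe filter, outlier spots, arrays fitted, probe of a gene and the wild type compared with.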

Additional observations from a re-analysis of the deposited data

Results flagged for a closer look

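Among the 6 wild-type levels of each gene, 1 value stood far from the others for Orm3 (6.16, on the second Sox11 cKO array, the only wild-type channel in which Orm3 was above background) and for Vnn3 (4.51, not above background). About 1 in 20 groups is marked so by chance.

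For several genes both dcKO arrays moved one way and both arrays of a single knockout the other. The dcKO change minus the Sox4 cKO change was 5.20 for Orm1, 5.29 for Orm2, 1.13 for Orm3, 7.88 for Gm15056 and 4.78 for Defb1 on the log2 scale. The dcKO change minus the Sox11 cKO change was 4.96 for Orm1, 4.88 for Orm2, 1.19 for Orm3 and -0.43 for Saa3. These differences were not tested, since the genes were chosen on the dcKO values, and Orm3 and Saa3 were near background.

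Among the other genes of the lists, the difference itself passed the test for Serpina3m between dcKO and Sox4 cKO (1.62) and for Spink5 between dcKO and Sox4 cKO (4.79) and between dcKO and Sox11 cKO (4.91). Spink5 showed a wild-type level on the dcKO arrays (8.42 and 9.91) below that on the other 4 arrays (10.16 to 12.95).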

How the results depend on the processing

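The fit without the dye term (no replicate block) gave 5 genes above 1.5 on both dcKO arrays, 0 of the 10 called in either single knockout or their difference, 0 listed genes called in Sox4 cKO or Sox11 cKO and 3 in dcKO; it lost Fabp4 (adjusted p = 0.0638) and changed no other call. The 5 genes of dcKO were also 5 under every other alternative but the processed signals (6, with Orm3) and, chosen after seeing the data, the wild type of the other 4 arrays (4, without Defb1). Listed genes called in dcKO numbered 4; they were 0 with offset 50, 0 with processed signals, 11 with median centring and 2 with the mean over all probes of a gene; the cause was not tested. With Sox4 cKO arrays alone, 2 of the 10 genes (Gm15056 and Defb1) and 2 listed genes were called. Leaving out 1 array gave 0 to 2 of the 10 genes in Sox4 cKO, 0 to 3 in Sox11 cKO and 0 to 2 in their difference, and 0 to 2, 0 to 20 and 1 to 9 listed genes in Sox4 cKO, Sox11 cKO and dcKO. The highest counts came without a Sox11 cKO array (20 without the first, 3 without the second) and the lowest in dcKO without its second array. In these fits some values that were not called changed sign. A genotype left with 1 array took its dye term from the other genotypes, so its fitted value differed from the ratio on that array. In Sox4 cKO, Vnn3 ran from -0.29 to 0.15, Saa3 from -0.21 to 0.34, Lcn2 from -1.86 to 0.35 and Defb1 from -3.79 to 0.071. In Sox11 cKO, Orm3 ran from -1.15 to 0.32, Vnn1 from -0.92 to 0.31, Vnn3 from -0.051 to 0.38, Gm15056 from -3.43 to 0.55, Saa3 from -0.16 to 0.67, Lcn2 from -1.33 to 3.50 and Defb1 from -3.61 to 1.15. The alternative with mean spot signals was not run, since the files used here hold medians. Orm3, Vnn3, Saa3 and Defb3 were near background, where small differences are not resolved.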
